A study of Mus musculus with 9 samples.

Results

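The p53 transcriptional target genes described here are 36 mouse genes listed by symbol as known targets of p53, with no measured value in the rule, although earlier results of these data were known when the list was drawn up. They were matched to the array by the gene symbol of each probe set, a probe set being the group of short oligonucleotides that reports 1 transcript. Where a gene had several probe sets, the one with the highest mean log2 signal over the arrays stood for it. Of the 36 listed genes, 34 had a probe set, 15 of them a single one and 19 several. Bax and Gdf15 had none under their symbols in the annotation used, and they were not analysed here. A further 3 genes, Bbc3, Fas and Tnfrsf10b, lay below the level at which genes were tested, so that 31 members stood among the 12167 genes tested out of 18193 measured.

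p53 is a transcription factor that is held at a low level in resting cells and accumulates after DNA damage, oncogene signalling and other stress. Its targets include inhibitors of the cell cycle, inducers of apoptosis, DNA repair factors and enzymes of metabolism, and some targets, such as Mdm2, shut p53 down again and so close a feedback loop. In stratified epithelium a few of the listed genes, Perp and Sfn among them, are abundant also where p53 is not engaged. The p53R172H allele encodes a missense change in the DNA-binding domain that is known to disturb the fold of the protein and its binding to target genes.

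The arrays measured total RNA from 9 mouse oral tumors, 3 of each of 3 genotypes, which the series' title links to the activation of Ras together with alterations of p53. The p53-/- tumors lacked p53, the p53R172H/- tumors had the missense allele over a null allele, and the p53R172H/+ tumors had it beside a wild-type allele. The mice were named K-p53-/-, K-p53R172H/- and K-p53R172H/+ in the labels, the prefix being common to the 3 groups, and all were 1 year old. The labels do not say what drove the alleles or which cells carried them, nor whether tumors of a group grew in separate animals, so p-values reflect the spread among these tumors, which may in part be technical. Loss of the wild-type allele in the p53R172H/+ tumors was not examined, and p53 itself was not analysed here, so its own transcript gave no check of the labels. Because tumors with working p53 in both alleles were not among the groups, the p53-/- tumors served as the reference without p53. In whole tumors fewer cells of a type and less RNA per cell cannot be told apart.

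The arrays were alike in brightness, with median signals of 109 to 123 units and trimmed means of 264 to 274 units. Markers of stratified epithelium were bright on every array, Krt14 at 19908 to 22692 and Krt5 at 10434 to 13213 signal units. Of the 9 skeletal muscle markers, 9 had their highest signal in p53R172H/- tumor 2, and the mean log2 level of that list ran from 6.46 to 11.19 within the p53R172H/- group alone.

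Sequence at the promoters of the best-known members is shown for its matches to the motif that p53 recognises. A p53 response element is built of 2 half-sites of 10 bases, whose consensus is symmetric between the strands, with a spacer of 0 to 13 bases between them. Exact matches to the p53 half-site consensus were sought in RefSeq promoter windows of 300 bases, from 250 before to 50 after the annotated start (build GRCm38.p6), which were at hand for 28 of the 36 members. The stretches below belong to Cdkn1a and to the 3 genes that feed back on p53, with Sesn1 as a metabolic target, and each half-site match is in capitals. The Cdkn1a stretch holds 2 matches whose spacing meets this rule for a full element, and each of the other 4 holds 1 half-site match. Near matches to the consensus were not marked, and which half-sites pair in binding was not tested.
Cdkn1a: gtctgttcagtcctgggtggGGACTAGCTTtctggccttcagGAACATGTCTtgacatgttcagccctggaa
Mdm2: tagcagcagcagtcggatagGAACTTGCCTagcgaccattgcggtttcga
Ccng1: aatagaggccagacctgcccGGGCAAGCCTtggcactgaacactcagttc
Ppm1d: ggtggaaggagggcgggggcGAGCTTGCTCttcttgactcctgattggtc
Sesn1: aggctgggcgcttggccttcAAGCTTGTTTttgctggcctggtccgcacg
The Cdkn1a stretch lies at chr17:29090886-29090957 on the plus strand. Its matches begin 73 and 51 bases before the start of one of its transcripts, and the window at its other annotated start held 0 half-sites. The Mdm2 stretch lies at chr10:117710915-117710964 on the minus strand, and its match begins 186 bases before the start. The Ccng1 stretch lies at chr11:40755442-40755491 on the minus strand, with the match 185 bases before the start. The Ppm1d stretch lies at chr11:85311102-85311151 on the plus strand, with the match 132 bases before the start. The Sesn1 stretch lies at chr10:41887246-41887295 on the plus strand, with the match 173 bases before the start of one of its transcripts.

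Of the 28 members with a window, 12 (42.9%) held at least 1 half-site, against 9.55% of all 27025 genes with a window. The members were listed as known targets of p53, so their share reflects that choice and says nothing about these tumors. Sequence outside the windows was not searched. Cdkn1a had the 1 member window, of 37, in which 2 exact half-sites lay close enough to count as a full element. That was a feature of 24 (0.0731%) of 32851 windows in all. Among the members that differed most between genotypes in the array data, Dcxr, Plk3, Ephx1, Cgref1, Plk2 and Sesn2 had no exact half-site in their windows. Abhd4, Aen, Ccng1 and Cdkn1a, whose groups also did not overlap in a comparison, did have a match. For Zmat3, Trp53inp1, Pmaip1, Ddb2 and Perp no window was at hand. The lack of a match says only that these letters were not found there. A match is likewise a description of the sequence and not a measured binding site.

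The plot of all tested members by tumor shows their overall pattern before any test. The mean log2 level of the 31 tested members was 9.29, 9.38 and 9.42 in the p53-/- tumors. It was 9.09, 9.21 and 9.32 in the p53R172H/- tumors and 9.30, 9.40 and 9.33 in the p53R172H/+ tumors. The p53R172H/- tumors 1 and 2 therefore lay below the other 7 tumors, while tumor 3 of that genotype lay among them. Of the 31 members, 11 had their lowest signal of the 9 tumors in p53R172H/- tumor 1 and 9 in p53R172H/- tumor 2, where 19.1% and 10.2% of all tested genes had theirs.

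**Figure D1:**
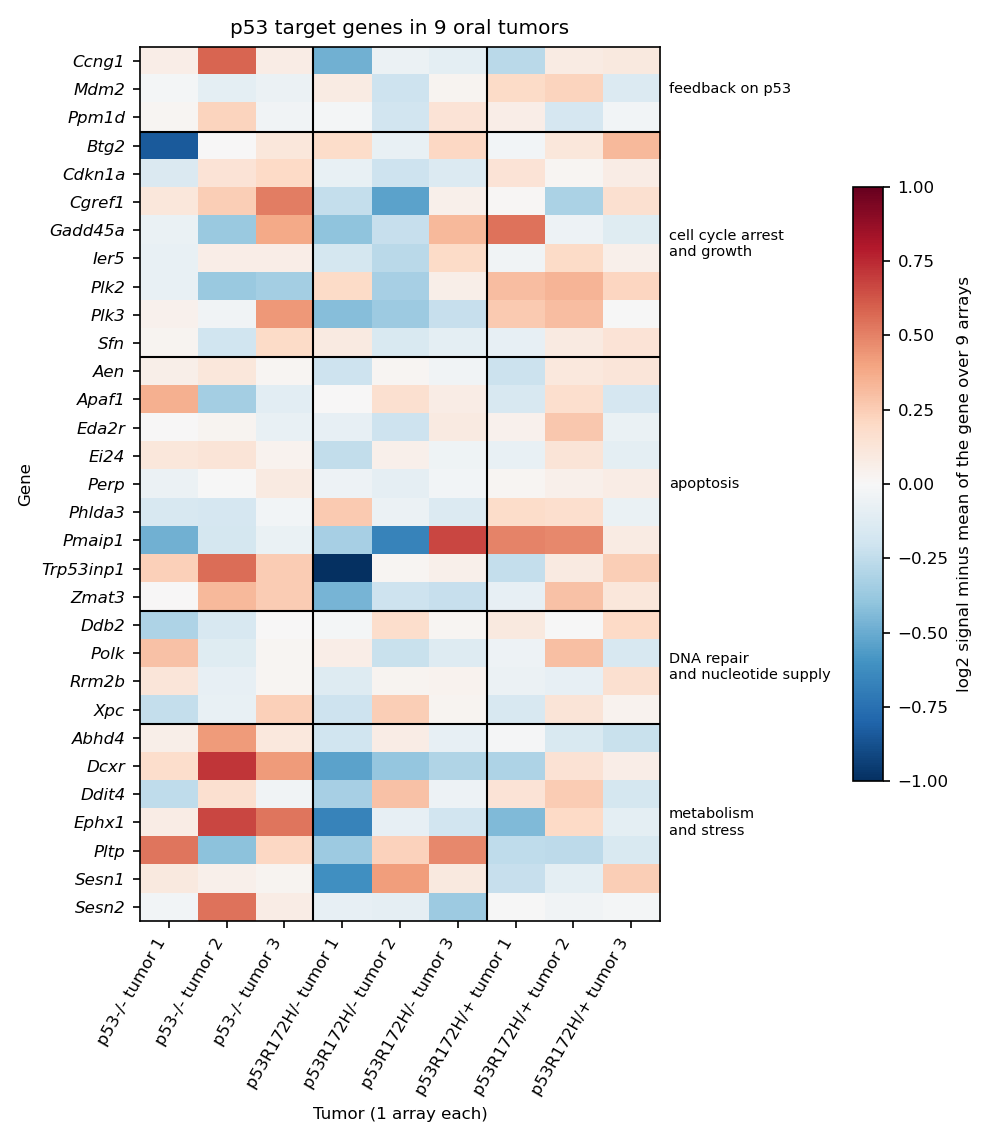
Log2 signal of the 31 tested p53 target genes (rows, by function) in each of the 9 tumors (columns, by genotype), given as the difference from the mean of the gene over the 9 arrays. Colours run from -1 (blue) to 1 (red) and values beyond are drawn at the end of the scale. Most members deviate little, and blue is most frequent in p53R172H/- tumor 1.

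The group means of a member could stand in 6 orders. In 19 members the p53R172H/- mean was the lowest of the 3. The p53-/- mean was the highest in 12 of these (38.7% of members, against 26.6% of all genes), among them Dcxr, Zmat3, Ccng1 and Ephx1. The p53R172H/+ mean was the highest in the other 7 (22.6% of members, against 11.6% of all genes), among them Cdkn1a, Plk3 and Perp. A further 7 members (22.6%, against 13.8% of all genes) had the p53-/- mean lowest and the p53R172H/+ mean highest. These were Btg2, Ddb2, Ddit4, Mdm2, Phlda3, Plk2 and Pmaip1.

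No member passed the test in any of the 4 comparisons made. With limma and Benjamini-Hochberg adjustment over the 12167 genes, 0 of 31 members had an adjusted p under 0.05, and the same held for 0% of all genes in each comparison. The median 95% interval of a member reached 0.32 to either side on the log2 scale (a factor of 1.25) before any adjustment, and from 0.12 to 0.69 over the members. The adjusted test asked for more than that, since Dcxr, 1.80-fold lower in p53R172H/- than in p53-/- tumors, did not pass it (adjusted p = 0.214, limma). The median within-group SD of the members was 0.188 on the log2 scale, against 0.163 for all genes tested. It was smallest for Perp (0.051) and largest for Trp53inp1 (0.454).

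The first comparison asked how target genes stood in tumors with the mutant protein alone against tumors with no p53. Relative to the p53-/- tumors, 21 of the 31 members were lower on average in p53R172H/- tumors, as 56.2% of all genes were, and 10 were higher. The median log2 difference was -0.09, beside -0.03 over all genes. At an unadjusted p under 0.05, 8 members (25.8%) were lower, where 9.16% of all genes were, and 0 were higher, where 6.44% of all genes were. In 9 members (29.0%) the 3 p53R172H/- values lay below the 3 p53-/- values, as in 13.8% of all genes: Aen, Ccng1, Cgref1, Dcxr, Ephx1, Plk3, Sesn2, Trp53inp1 and Zmat3. In 0 members they lay above, as in 9.11% of all genes. The lowest adjusted p of a member was 0.214, and that of any gene 0.202. The count of 8 was 5 without p53-/- tumor 2, and the median was -0.17 without p53R172H/- tumor 3. The count of 8 was also 5 with the mean of all probe sets of a gene. Centring each array on its median moved all genes of this contrast upward alike, to 43.8% lower with a median of 0.04, and 17 members (54.8%) were then lower with a median of -0.02. After quantile normalization 21 members were lower, beside 54.0% of all genes. Of the 9 members without overlap, 5 had a further probe set above the tested level, which also did not overlap for Cgref1 and overlapped for Aen, Ccng1, Sesn2 and Trp53inp1.

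The second comparison set tumors with 1 mutant and 1 wild-type allele against tumors with no p53. Between p53R172H/+ and p53-/- tumors the members were split evenly, with 15 higher and 16 lower (56.1% of all genes) and a median log2 difference of -0.01, beside -0.03 over all genes. After centring of the arrays 12 members (38.7%) were lower with a median of 0.05, beside 41.8% of all genes with a median of 0.04, and after quantile normalization 13 (41.9%) were, beside 52.9% of all genes. At an unadjusted p under 0.05, 1 member was higher (4.75% of all genes) and 3 were lower (5.60% of all genes). The values did not overlap in 4 members. Of these, Plk2 and Pmaip1 were higher, as 7.08% of all genes were, and Abhd4 and Dcxr were lower, as 8.86% of all genes were. The further probe set of Abhd4 above the tested level overlapped. Cdkn1a, Ier5 and Cgref1 overlapped at their brightest probe set. A further one did not overlap, being higher for Cdkn1a and Ier5 and lower for Cgref1. The lowest adjusted p of a member was 0.359. The count of 3 was 1 (3.07% of all genes) with centred arrays. It was also 1 without p53-/- tumor 2, p53R172H/+ tumor 1 or p53R172H/+ tumor 3, and the count of 1 was 3 without p53-/- tumor 3 or p53R172H/+ tumor 3.

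The third comparison set the mutant groups against each other, which by their labels have a different second allele, null in p53R172H/- and wild type in p53R172H/+ tumors. Whether the wild-type allele was kept was not examined, and markers of cell content also differed between these groups, as given below. Here 26 of the 31 members (83.9%) were lower in the p53R172H/- tumors, against 52.0% of all genes, and 5 were higher. The median log2 difference was -0.13, beside -0.01 over all genes, and it was -0.12 with the same 26 to 5 split after centring of the arrays. Without p53R172H/- tumor 1 the split was 21 lower of 31. At an unadjusted p under 0.05, 3 members were lower (2.96% of all genes) and 0 were higher (2.00% of all genes). In 6 members (19.4%) the values did not overlap, all lower in p53R172H/- tumors, as in 6.62% of all genes, and 0 were higher without overlap, as 5.27% of all genes were. The 6 are Cdkn1a, Perp, Plk2, Plk3, Sesn2 and Zmat3, and the further probe sets of Cdkn1a and Sesn2 above the tested level overlapped. The lowest adjusted p of a member was 0.916, and that of any gene was 0.452. The count of 3 was 5 without p53-/- tumor 1.

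With both mutant groups set together against p53-/-, 20 members were lower (56.5% of all genes) and 11 higher, with a median log2 difference of -0.09. At an unadjusted p under 0.05, 7 members were lower (9.09% of all genes) and 2 higher (6.84% of all genes). Dcxr was the 1 member whose 6 mutant values lay below the 3 p53-/- values, as 3.94% of all genes did. In 0 members they lay above, as in 3.34% of all genes. Cgref1 had its 6 mutant values below at its second probe set alone. The count of 7 was 2 with centred arrays, where 5.08% of all genes were lower by that measure, and 4 with the epithelial level as covariate, where 4.31% were. It was also 4 without p53-/- tumor 2 or p53R172H/+ tumor 1, and the count of 2 was 1 without any single tumor other than p53-/- tumor 3 and p53R172H/+ tumor 2. These comparisons share tumors, so they are not independent of each other.

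**Figure D2:**
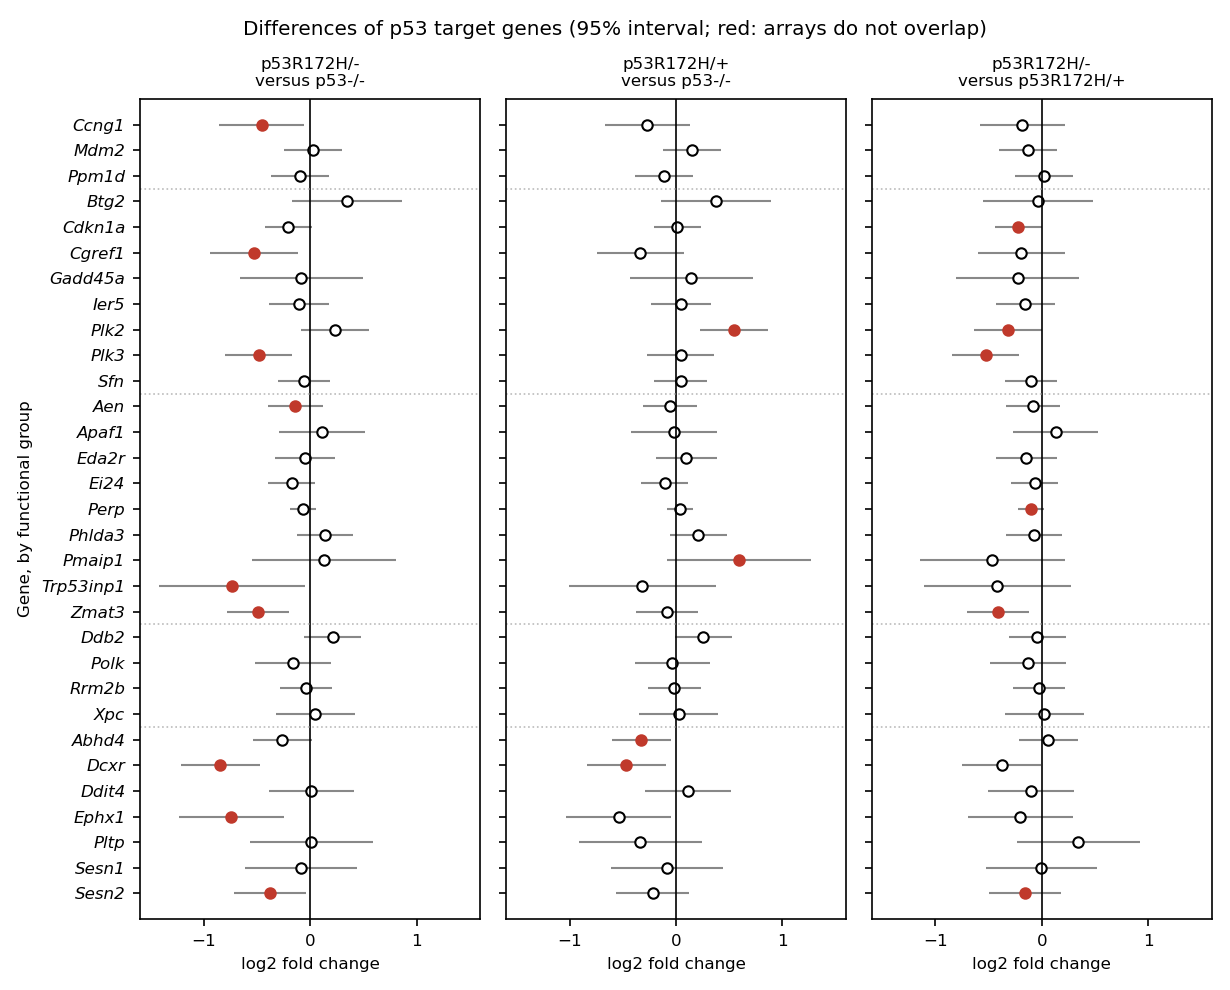
Log2 fold change of each tested p53 target gene (rows, by function) in the 3 pairwise comparisons, with the 95% interval from limma as a line and filled red points where the 3 values of one genotype do not overlap those of the other. Most intervals span 0, and the points of the right panel lie mostly to the left of 0.

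Other features of the tumors moved with these groups. The mean log2 level of 9 measured proliferation markers was 8.75 to 9.10 in p53-/-, 9.35 to 9.57 in p53R172H/- and 9.02 to 9.30 in p53R172H/+ tumors, and their summed signal was 4747 to 6207, 7295 to 8350 and 5800 to 6895 units. On average 9 of the 9 were higher in each mutant group than in p53-/-. Of the 8 fibroblast markers 6 were lower in p53R172H/- than in p53-/- tumors, with a summed signal of 14121 to 21880 against 18263 to 30056 units, and the p53R172H/+ sum was 22841 to 26951 units. Between the mutant groups 7 of the 8 fibroblast markers were lower in p53R172H/- tumors, with a median log2 difference of -0.67. Of these, 6 had an unadjusted p under 0.05 (2.96% of all genes) and 5 did not overlap (6.62% of all genes). In the same comparison 9 of 9 proliferation markers were higher, with a median of 0.24, and 9 of 9 skeletal muscle markers, with a median of 2.06. Of the proliferation markers 3 had an unadjusted p under 0.05 (limma, 2.00% of all genes) and 4 did not overlap (5.27% of all genes). Of the muscle markers 0 did either. The mean log2 level of the muscle list in p53R172H/- tumor 1 was 6.46, below p53R172H/+ tumors 1 (7.14) and 3 (8.41), so tumors 2 and 3 carried that difference. None of the proliferation and fibroblast markers was at 0. The part of proliferation, fibroblast and muscle content in the differences of the p53 targets was not tested.

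The feedback genes act on p53 itself: Mdm2 encodes the ubiquitin ligase that degrades it, Ppm1d a phosphatase that removes its activating marks, and Ccng1 a cyclin that takes part in the Mdm2 loop. Of these 3 genes, 2 were on average lower in each mutant group than in p53-/- tumors, with medians of -0.09 in p53R172H/- and -0.11 in p53R172H/+. The Mdm2 signal was 618, 583 and 599.8 units in the p53-/- tumors. It was 660.0, 541 and 637 in the p53R172H/- tumors and 714, 730.3 and 568 in the p53R172H/+ tumors. The groups overlapped, and the p53-/- values were the closest to each other. The log2 difference of Mdm2 was 0.02 ± 0.12 (SE; 95% interval -0.25 to 0.30) for p53R172H/- and 0.15 ± 0.12 (-0.12 to 0.42) for p53R172H/+ against p53-/-, and a second bright probe set gave 0.03 and 0.22. Its dimmest probe set lay at or below the floor on 7 of the 9 arrays and gave no usable difference.

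Ccng1 signals were 1029.5, 1467 and 1031 units in p53-/- tumors, 703, 942 and 916 in p53R172H/- tumors and 814, 1040.2 and 1052 in p53R172H/+ tumors. The p53R172H/- values lay below the p53-/- values, with tumor 2 of the p53-/- group well above tumors 1 and 3, and the p53R172H/+ values overlapped with both. The p53R172H/- mean was lower 1.37-fold, a log2 difference of -0.45 ± 0.18 (SE) with an adjusted p of 0.286 (limma). It was -0.28 without p53-/- tumor 2. The other probe sets of Ccng1 differed by -0.16 and 0.00. Ppm1d had 283 to 338 units in p53-/-, 254 to 318 in p53R172H/- and 258 to 303 in p53R172H/+ tumors, ranges that overlapped throughout, and its second probe set gave a log2 difference of 0.13 for p53R172H/- against p53-/-, opposite in sign to the -0.09 of the brighter one.

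Among the 8 genes of cell cycle arrest and growth, 6 were on average lower in p53R172H/- than in p53-/- tumors (median log2 difference -0.09), and 7 were higher in p53R172H/+ (median 0.05). Against p53R172H/+, 8 of the 8 were lower in p53R172H/- tumors, with a median of -0.20, under each of the 3 scalings tried. On the main scaling 52.0% of all genes were lower. In 3 of the 8, Cdkn1a, Plk2 and Plk3, the values did not overlap, as in 6.62% of all genes. These counts hold for the brightest probe sets. Further probe sets gave 0.04 for Cdkn1a, with overlap, 0.19 for Btg2 and 0.06 for Plk2, while those of Cgref1 and Ier5 were lower.

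Cdkn1a encodes p21, the inhibitor of cyclin-dependent kinases through which p53 arrests the cycle. Its signal was 2249, 2727 and 2855 units in p53-/- tumors, 2354, 2151 and 2256 in p53R172H/- tumors and 2737, 2512 and 2617 in p53R172H/+ tumors. All 3 p53R172H/- values lay below the p53R172H/+ values, while the p53-/- values spanned both groups. The means were 2610.5 ± 319, 2253 ± 101 and 2622 ± 113 units (SD, n = 3). The log2 difference between p53R172H/- and p53R172H/+ was -0.22 ± 0.10 (SE; 95% interval -0.44 to 0.00; adjusted p = 0.949, limma), and that between p53R172H/+ and p53-/- was 0.01 ± 0.10 (-0.21 to 0.23).

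The second probe set of Cdkn1a gave another picture. It read 526, 551 and 655 units in p53-/- tumors, 843, 1015 and 655 in p53R172H/- tumors and 979, 803 and 658 in p53R172H/+ tumors. In both mutant groups tumors 1 and 2 were above the p53-/- tumors and tumor 3 was close to the highest of them. In p53R172H/+ tumor 3 the signal was 658.1 units against 655.1 in that p53-/- tumor, so these 2 groups narrowly did not overlap. The log2 difference from p53-/- was 0.52 for p53R172H/- and 0.48 for p53R172H/+, opposite in sign to the brighter probe set for the former, and between the mutant groups it was 0.04. Which transcript each probe set reports was not tested, so no direction is given for Cdkn1a against p53-/-.

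Plk3, a stress-responsive polo-like kinase, separated the p53R172H/- tumors from both other genotypes. Its signal was 801, 759 and 1054 units in p53-/- tumors, 581, 605 and 665 in p53R172H/- tumors and 935, 964 and 777 in p53R172H/+ tumors. The 3 p53R172H/- values lay below the 6 others, and the other 2 genotypes overlapped. The log2 difference was -0.48 ± 0.14 (SE) against p53-/- (1.40-fold lower, adjusted p = 0.237) and -0.53 ± 0.14 against p53R172H/+ (1.44-fold lower, adjusted p = 0.916, limma). Between p53R172H/+ and p53-/- it was 0.04 ± 0.14.

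Plk2, a polo-like kinase of the same family, had another order. Its signal was 999, 813 and 828 units in p53-/- tumors, 1198, 832 and 1095 in p53R172H/- tumors and 1301, 1326 and 1218 in p53R172H/+ tumors. The p53R172H/+ values stood above the other 6, and the p53R172H/- values overlapped with p53-/-. Plk2 was 1.46-fold higher in p53R172H/+ than in p53-/- tumors, a log2 difference of 0.55 ± 0.14 (SE; 95% interval 0.23 to 0.87; adjusted p = 0.359, limma). The difference between the mutant groups was -0.32 ± 0.14, and it was -0.16 without p53R172H/- tumor 2. The second probe set of Plk2 gave 0.14 for p53R172H/+ against p53-/- and 0.06 between the mutant groups.

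Cgref1, a cell growth regulator with calcium-binding motifs, read 339, 372 and 447 units in p53-/- tumors, 267, 217 and 325 in p53R172H/- tumors and 317, 252 and 351 in p53R172H/+ tumors. The p53R172H/- values lay below the p53-/- values, and the p53R172H/+ values overlapped with both. The log2 difference was -0.53 ± 0.18 (SE) for p53R172H/- (1.44-fold lower, adjusted p = 0.263, limma) and -0.34 ± 0.18 for p53R172H/+. The second probe set gave -0.56 and -0.35, and there the values of both mutant groups lay below those of p53-/-.

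The other 4 genes of this group had overlapping genotypes at their brightest probe set, while further probe sets of Btg2 and Ier5 did not overlap in some comparisons. Gadd45a, a stress sensor that binds cell cycle and repair proteins, ranged from 220 to 424 units, with values of each genotype among those of the others. Sfn, the 14-3-3 sigma protein of epithelial cells, ranged from 6898 to 9048 units and differed by -0.06 ± 0.11 (SE) in p53R172H/- and by 0.04 ± 0.11 in p53R172H/+ tumors on the log2 scale. Btg2, an antiproliferative cofactor, had its lowest value of 491 units in p53-/- tumor 1 and 833 to 1100.3 units in the other 8 tumors. Its log2 difference for p53R172H/- was 0.34 ± 0.23, and 0.04 without that tumor. A second bright probe set of Btg2 read 507, 429 and 466 units in p53-/- tumors, 590.1, 649 and 798 in p53R172H/- tumors and 584, 717 and 488 in p53R172H/+ tumors. There the p53R172H/- values stood above the p53-/- values without overlap, at a log2 difference of 0.53, the direction of the brighter probe set. Ier5, an immediate early gene, ranged from 1240.0 to 1707 units, and at the dimmest of its 3 probe sets the p53R172H/+ values of 157.25 to 169 units lay above those of both other genotypes, which ran from 127 to 156.5 units.

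**Figure D3:**
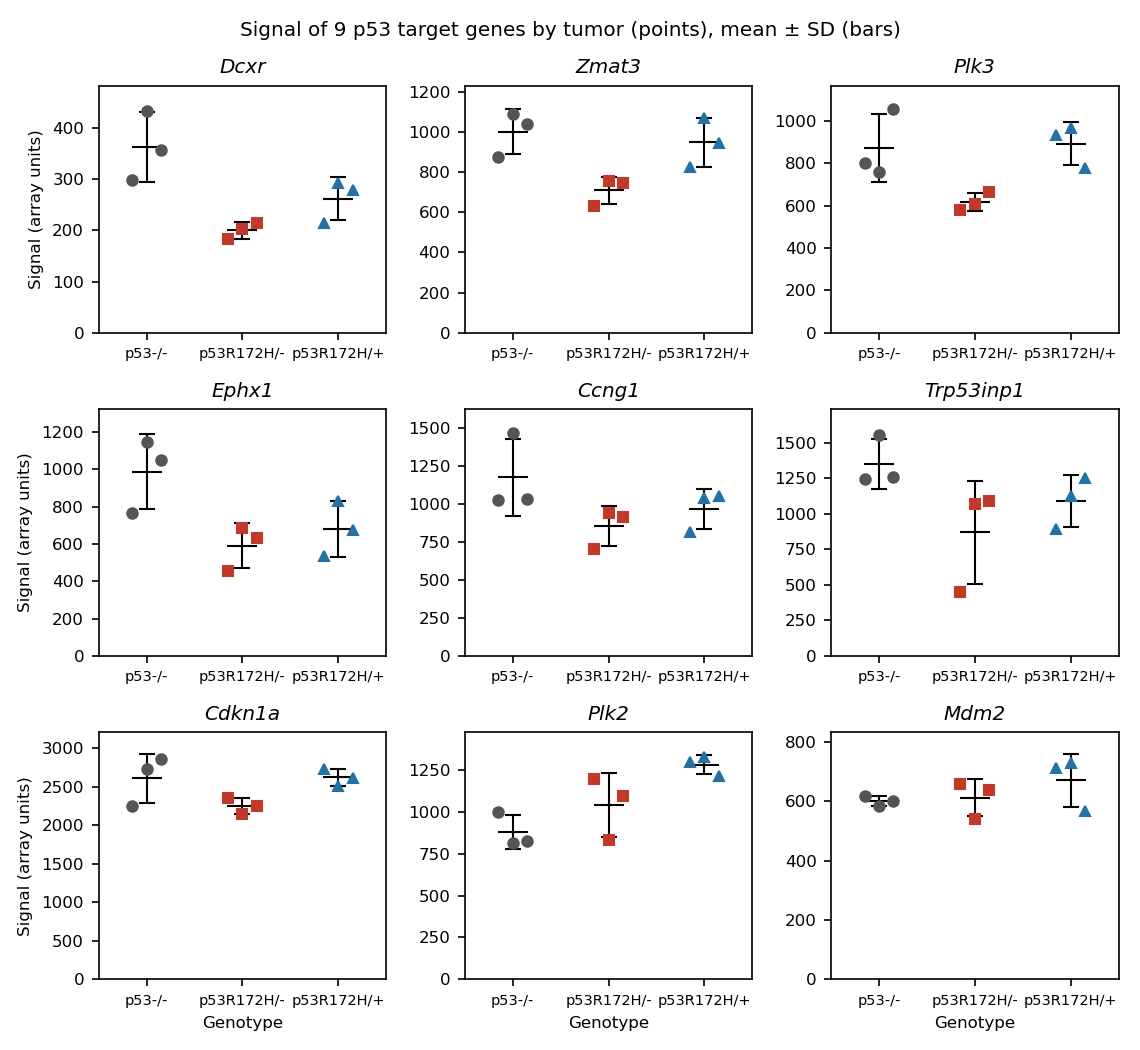
Signal of 9 p53 target genes in array units, with 1 point per tumor and bars for the mean ± SD of the 3 tumors of a genotype, each axis starting at 0. The 3 p53R172H/- points of Dcxr, Zmat3, Plk3, Ephx1, Ccng1 and Trp53inp1 lie below the 3 p53-/- points, while those of Mdm2 overlap.

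The apoptosis genes had small median differences from the p53-/- tumors and larger ones in single genes. Against p53-/-, 3 of the 9 tested were lower without overlap in p53R172H/- tumors, as 13.8% of all genes were. In p53R172H/+ tumors 1 was higher without overlap, as 7.08% of all genes were. Of the 9 tested, 6 were on average lower in p53R172H/- tumors and 3 higher (median log2 difference -0.06), a split that became 4 and 5 with centred arrays. In p53R172H/+ tumors 5 were lower and 4 higher (median -0.02), or 3 and 6 with centred arrays. Between the mutant groups 8 of the 9 were lower in p53R172H/-, with a median of -0.10, beside 52.0% of all genes. The count was the same under each scaling.

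Zmat3, a zinc finger RNA-binding protein induced by p53, read 876, 1092 and 1039.8 units in p53-/- tumors, 633, 756 and 744 in p53R172H/- tumors and 827, 1073 and 947 in p53R172H/+ tumors. The 3 p53R172H/- values were the lowest of the 9, and the other genotypes overlapped. The means were 1002 ± 113, 711 ± 67.7 and 949 ± 123 units (SD, n = 3). Zmat3 was 1.41-fold lower in p53R172H/- than in p53-/- tumors (log2 difference -0.49 ± 0.13, SE; adjusted p = 0.214, limma) and 1.33-fold lower than in p53R172H/+ tumors (-0.41 ± 0.13; adjusted p = 0.948).

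Trp53inp1, which encodes a p53-induced nuclear protein with a role in apoptosis and autophagy, read 1242, 1551 and 1258 units in p53-/- tumors, 452, 1067 and 1089 in p53R172H/- tumors and 892, 1121 and 1251 in p53R172H/+ tumors. The p53R172H/- values lay below the p53-/- values, with tumor 1 far below the other 2 of its genotype. The log2 difference was -0.73 ± 0.31 (SE; 1.66-fold lower; adjusted p = 0.303, limma), and it was -0.32 without p53R172H/- tumor 1. The dimmer probe set of Trp53inp1 differed by 0.03 in this contrast, with overlapping groups. For p53R172H/+ against p53-/- the probe sets pointed in opposite directions, at -0.32 and 0.13.

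Pmaip1 encodes NOXA, a BH3-only protein that neutralises survival factors of mitochondria. Its signal was 128, 159 and 171.8 units in p53-/- tumors, 143, 113 and 285 in p53R172H/- tumors and 253, 250.3 and 190.3 in p53R172H/+ tumors. The p53R172H/+ values lay above the p53-/- values, and the p53R172H/- tumors spanned both ranges, holding the lowest and the highest value. Pmaip1 was 1.51-fold higher in p53R172H/+ than in p53-/- tumors, a log2 difference of 0.59 ± 0.30 (SE; 95% interval -0.09 to 1.27; adjusted p = 0.519, limma).

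Perp, a membrane protein of desmosomes that was first known as a p53 effector, had the most even signal of the members. It read 12959, 13466 and 14433 units in p53-/- tumors, 13081, 12734 and 13248 in p53R172H/- tumors and 13697, 14038 and 14215 in p53R172H/+ tumors. In p53R172H/- tumors it lay below the p53R172H/+ values without overlap, though close to them. The log2 difference was -0.10 ± 0.05 (SE; 95% interval -0.23 to 0.02; adjusted p = 0.949, limma).

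Aen, a nuclease that degrades DNA in apoptosis, separated p53R172H/- from p53-/- tumors narrowly, since the highest p53R172H/- value was 576 and the lowest p53-/- value 577 units. The log2 difference was -0.14 ± 0.11 (SE), or -0.07 without p53R172H/- tumor 1, and another bright probe set of Aen gave 0.15. Phlda3, an inhibitor of Akt signalling, ranged from 2392 to 2634 units in p53-/- and from 2554 to 3046 in p53R172H/+ tumors, a log2 difference of 0.21 ± 0.12. Ei24, a membrane protein of the endoplasmic reticulum, differed by -0.17 ± 0.10 in p53R172H/- tumors, or by -0.09 without p53R172H/- tumor 1. Apaf1, the core of the apoptosome, and Eda2r, a receptor of the tumor necrosis factor family, differed by 0.11 ± 0.18 and -0.05 ± 0.13 in the same contrast.

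The 3 members below the tested level were dim on these arrays. Bbc3, which encodes the BH3-only protein PUMA, read 91.4, 169 and 89.3 units in p53-/- tumors, 113, 78.6 and 85.7 in p53R172H/- tumors and 53.9, 106 and 79.4 in p53R172H/+ tumors. Fas, a death receptor, read 87.4, 75.0 and 71.7 units in p53-/- tumors, 77.5, 89.6 and 92.7 in p53R172H/- tumors and 74.1, 61.9 and 69.1 in p53R172H/+ tumors. Tnfrsf10b, the mouse death receptor for TRAIL, lay between 51.6 and 134 units. At this brightness close to the floor of 52.6 units no difference was tested, and the genotypes overlapped for Bbc3 and Tnfrsf10b. For Fas the p53R172H/+ values lay below the p53R172H/- values.

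The 4 genes of DNA repair and nucleotide supply had median log2 differences of 0.00 in p53R172H/- and 0.01 in p53R172H/+ tumors against p53-/-, which became 0.07 and 0.07 with centred arrays. Ddb2, which recognises ultraviolet lesions for nucleotide excision repair, read 113, 125 and 140.1 units in p53-/- tumors, 138, 158 and 142 in p53R172H/- tumors and 149.7, 139.9 and 161 in p53R172H/+ tumors. The value of p53-/- tumor 3 lay within the range of both mutant groups, and those of tumors 1 and 2 lay below them. The log2 difference was 0.26 ± 0.12 (SE) for p53R172H/+ (adjusted p = 0.496, limma) and 0.23 ± 0.10 for both mutant groups together (adjusted p = 0.313). Rrm2b, the p53-inducible subunit of ribonucleotide reductase, ranged from 187 to 229 units. Xpc, a damage sensor of excision repair, ranged from 98.8 to 139 units, and Polk, a translesion polymerase, from 141 to 203 units. The 3 genotypes overlapped in each of these 3 genes.

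The genes of metabolism and stress included Dcxr and Ephx1, the 2 members with the largest differences of p53R172H/- from p53-/- tumors. Of the 7 tested, 5 were on average lower in p53R172H/- tumors (median log2 difference -0.26) and 6 in p53R172H/+ tumors (median -0.33), and with centred arrays the same counts were lower, at medians of -0.19 and -0.26. Between the mutant groups 5 of the 7 were lower in p53R172H/- tumors, with a median of -0.10.

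Dcxr encodes an NADPH-dependent reductase of dicarbonyl compounds and L-xylulose that is abundant in epithelia. Its signal was 299, 435 and 357 units in p53-/- tumors, 183, 202 and 216 in p53R172H/- tumors and 215, 294 and 278 in p53R172H/+ tumors. The 6 mutant values lay below the 3 p53-/- values, and the lowest p53R172H/+ value was within the p53R172H/- range. The means were 364 ± 67.8, 200.4 ± 16.3 and 262 ± 41.9 units (SD, n = 3). Against p53-/-, Dcxr was 1.38-fold lower in p53R172H/+ tumors (log2 difference -0.47 ± 0.16, SE; adjusted p = 0.415, limma). It was 1.58-fold lower in both mutant groups together (-0.66 ± 0.14; adjusted p = 0.187), and between the mutant groups the difference was -0.38 ± 0.16.

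Ephx1, the microsomal epoxide hydrolase of detoxification, read 764, 1148 and 1051 units in p53-/- tumors, 455, 686 and 634 in p53R172H/- tumors and 534, 832 and 676 in p53R172H/+ tumors. The p53R172H/- values lay below the p53-/- values, and the p53R172H/+ values overlapped with both. Tumor 1 was the lowest and tumor 2 the highest of each genotype. Ephx1 was 1.67-fold lower in p53R172H/- tumors (log2 difference -0.74 ± 0.22, SE; adjusted p = 0.243, limma) and 1.45-fold lower in p53R172H/+ tumors (-0.54 ± 0.22; adjusted p = 0.460).

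Abhd4, a lipase of N-acyl phospholipids, read 821, 1059 and 846 units in p53-/- tumors, 688, 830.0 and 746 in p53R172H/- tumors and 782, 709 and 674 in p53R172H/+ tumors. The p53R172H/+ values lay below the p53-/- values, with a log2 difference of -0.33 ± 0.12 (SE; 1.25-fold lower; adjusted p = 0.436, limma). It was -0.21 without p53-/- tumor 2, and the second probe set gave -0.09.

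The sestrins restrain mTORC1 and oxidative stress. Sesn1 read 642, 621 and 611 units in p53-/- tumors, 393, 803 and 644 in p53R172H/- tumors and 512, 562 and 710.3 in p53R172H/+ tumors. The p53-/- values were close together, and the mutant values spread to both sides of them, so that the log2 difference of p53R172H/- from p53-/- was -0.09 ± 0.23 (SE; 95% interval -0.61 to 0.44). It was 0.20 without p53R172H/- tumor 1 and -0.31 without tumor 2, and further probe sets gave -0.27 and 0.13. Sesn2 read 429, 639 and 462 units in p53-/- tumors, 412, 411 and 341 in p53R172H/- tumors and 436, 427 and 432 in p53R172H/+ tumors. In p53R172H/- tumors the signal was the lowest of the 9, at a log2 difference of -0.38 ± 0.15 (SE; 1.30-fold lower; adjusted p = 0.293, limma) from p53-/-, which was -0.20 without p53-/- tumor 2. The second probe set of Sesn2 read 174, 257 and 211 units in p53-/- tumors, 205, 171.6 and 170.6 in p53R172H/- tumors and 196, 177 and 203 in p53R172H/+ tumors. Its genotypes overlapped, with log2 differences of -0.22 for p53R172H/- against p53-/- and -0.08 between the mutant groups, so the separation of Sesn2 was seen at the brighter probe set alone.

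Ddit4, an inhibitor of mTORC1 induced by several stresses, ranged from 838 to 1290 units with overlapping genotypes. Pltp, the phospholipid transfer protein of plasma, read 1062, 551 and 845 units in p53-/- tumors, 571, 861 and 1022 in p53R172H/- tumors and 614, 610.0 and 658 in p53R172H/+ tumors. The p53R172H/+ values of Pltp lay inside the wider ranges of both other genotypes.

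Several members carry more than 1 bright probe set, and these did not always point the same way. Of 13 such members, the probe sets differed in sign in 6 for p53R172H/- against p53-/-, in 4 for p53R172H/+ against p53-/- and in 4 between the mutant groups. Differences of opposite sign that both exceeded 0.1 on the log2 scale were seen for Cdkn1a and Aen in the p53R172H/- comparison and for Trp53inp1 in the p53R172H/+ comparison. Dcxr, Zmat3, Plk3 and Ephx1 had a single probe set each.

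**Figure D4:**
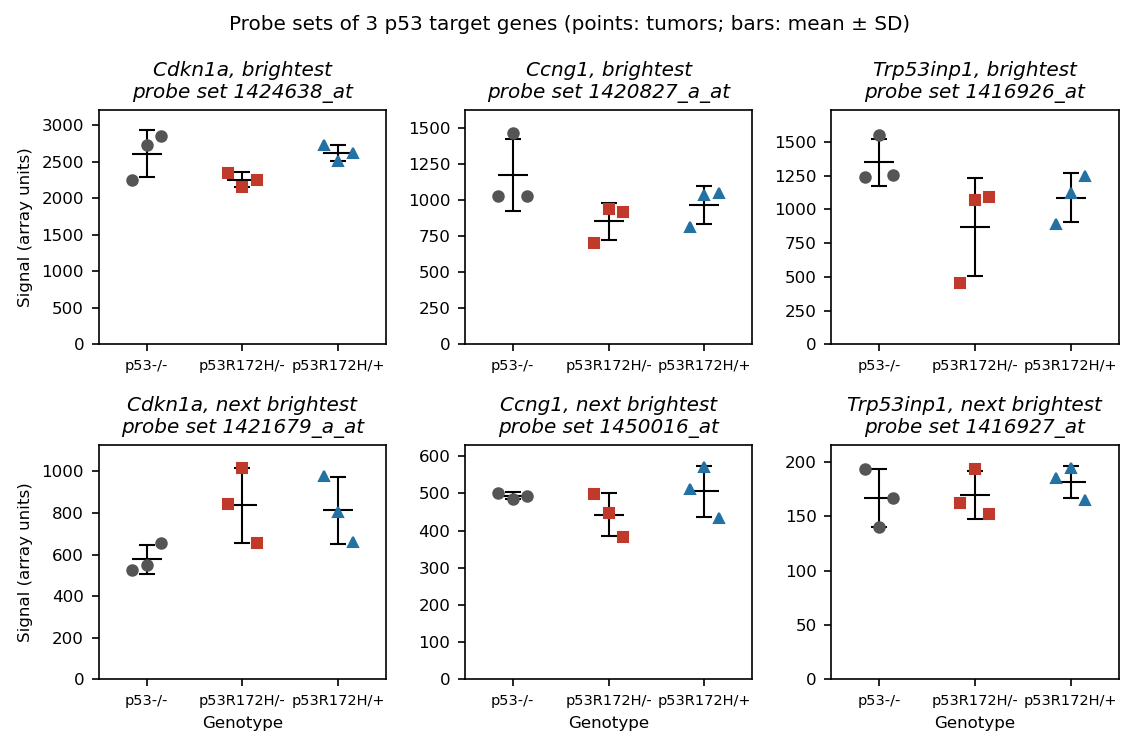
Signal in array units of the brightest (top) and the next brightest (bottom) probe set of Cdkn1a, Ccng1 and Trp53inp1, with 1 point per tumor and bars for the mean ± SD of each genotype. The p53R172H/- points of Cdkn1a lie below the p53R172H/+ points on the brightest probe set and overlap with them on the next, and the gap of Trp53inp1 between p53-/- and p53R172H/- is absent from its dimmer probe set.

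The p53 target list was set beside 43 further p53 targets, of which 36 were tested. Of those 36, 21 were lower and 15 higher in p53R172H/- than in p53-/- tumors (median log2 difference -0.10), and 23 were lower and 13 higher in p53R172H/+ tumors (median -0.06). Between the mutant groups 15 were lower and 21 higher (median 0.02), where 26 of the 31 members were lower. At an unadjusted p under 0.05, 2 of the 36 were higher and 5 lower in p53R172H/- tumors, beside 6.44% and 9.16% of all genes. In p53R172H/+ tumors 4 were higher and 5 lower, beside 4.75% and 5.60%, and between the mutant groups 1 was lower, beside 2.96%.

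Zfp365, a zinc finger gene with a role in genome stability, read 167, 162 and 197 units in p53-/- tumors, 102, 130.0 and 116 in p53R172H/- tumors and 119, 123 and 116 in p53R172H/+ tumors. The 6 mutant values lay below the 3 p53-/- values, with log2 differences of -0.60 ± 0.13 (SE; adjusted p = 0.214, limma) and -0.55 ± 0.13 (adjusted p = 0.359). Sco2, an assembly factor of cytochrome c oxidase, was lower by a log2 difference of -0.51 ± 0.12 in p53R172H/- than in p53-/- tumors and by -0.28 ± 0.12 than in p53R172H/+ tumors, without overlap in either case. Tap1, the peptide transporter of antigen presentation, differed by -0.39 ± 0.11 in p53R172H/+ tumors. Ckap2, a spindle protein, differed by 0.50 ± 0.14 on the log2 scale in p53R172H/- tumors relative to p53-/-. Tgfa, a ligand of the epidermal growth factor receptor, was higher by 0.44 ± 0.12 in both mutant groups together, and Rap2b, a small GTPase, by 0.32 ± 0.10 in p53R172H/+ tumors. Rps27l and Cdip1, both with roles in apoptosis, differed by -0.14 ± 0.07 and 0.33 ± 0.17 between the mutant groups. None of these passed the adjusted threshold.

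Regulators upstream of p53 were listed as 26 genes, of which 22 were tested. In p53R172H/- tumors 10 were higher and 12 lower than in p53-/- (median log2 difference -0.01), in p53R172H/+ tumors 11 and 11 (median 0.01), and between the mutant groups 14 and 8 (median 0.05). At an unadjusted p under 0.05, 4 of the 22 were higher and 0 lower in p53R172H/- tumors (limma), beside 6.44% and 9.16% of all genes. In p53R172H/+ tumors 2 were higher and 1 lower, beside 4.75% and 5.60%, and between the mutant groups 0 were either, beside 2.00% and 2.96%. Chek2, a kinase that activates p53 after DNA damage, read 99.2, 79.1 and 102 units in p53-/- tumors, 115, 132 and 115 in p53R172H/- tumors and 128, 134 and 153 in p53R172H/+ tumors. The 6 mutant values lay above the 3 p53-/- values, with log2 differences of 0.38 ± 0.14 (SE; adjusted p = 0.271, limma) and 0.57 ± 0.14 (adjusted p = 0.359). Trim24, a ligase for p53, was higher by 0.36 ± 0.13 and 0.40 ± 0.13 in the same comparisons, and Sirt1, a deacetylase of p53, by 0.41 ± 0.14 in p53R172H/- tumors. Trp53bp2, which binds p53 and favours its apoptotic targets, differed by -0.27 ± 0.11 in p53R172H/+ tumors. Between the mutant groups Trim28 differed by 0.28 ± 0.12, the damage kinase Atr by 0.18 ± 0.08 and the deubiquitinase Usp10 by -0.22 ± 0.11.

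**Figure D5:**
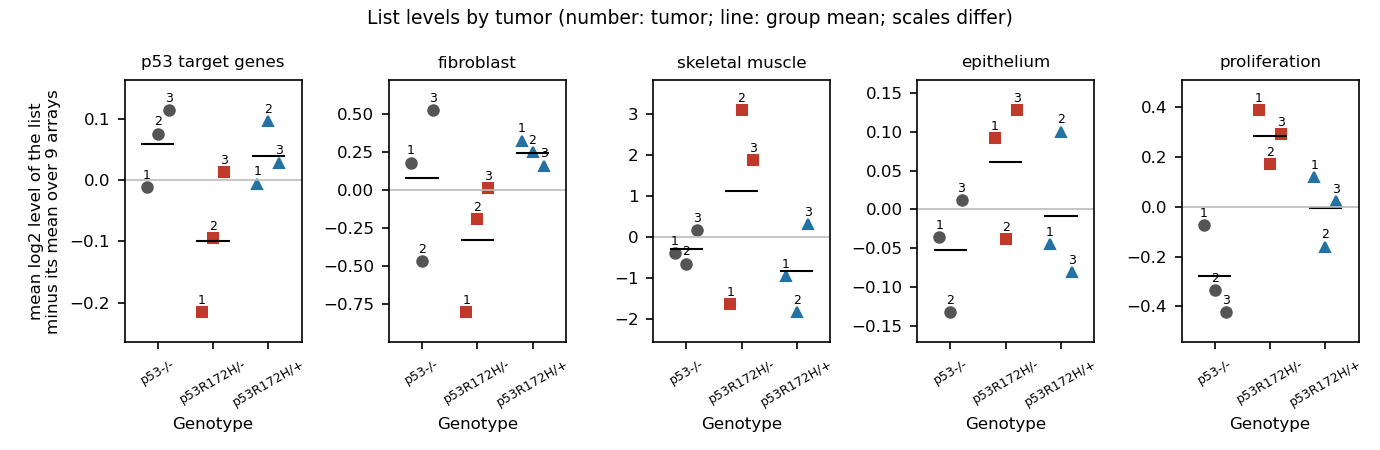
Mean log2 level of the 31 tested p53 target genes and of 4 marker lists in each tumor, given as the difference from the mean over the 9 arrays, with numbers for the tumors and lines for the group means. The vertical scales differ between panels, and p53R172H/- tumor 1 is the lowest in the p53 target and fibroblast panels.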

How the data were processed

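The arrays were of the Affymetrix type and were hybridised with biotin-labelled cRNA made from column-purified total RNA of the 9 tumors, per the labels' protocols. What the authors deposited is 1 linear intensity (the signal) for each probe set on each array, computed with MAS5 per the submitters' processing notes, with version and scaling not given in the sources at hand. Of 45101 probe sets, 64 were controls and were left out, 34945 carried 1 gene symbol, and those with several symbols (932) or with no symbol (9160) were not used.

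Intensities below the 20th percentile (52.6 units) were raised to it before log2 was taken. The probe set of highest mean stood for a gene, and genes under the median probe set (113 units) were left out. Genotype means were fitted to the 9 arrays together in limma 3.58.1 under R 4.3.3, with lmFit and with eBayes using a variance trend, and two-sided p-values were adjusted by Benjamini-Hochberg over 12167 genes. The fit was tried on simulated data with changes larger than any difference of a member here. That trial does not show how well differences of the members' size are found. No 2 arrays shared over 0.0422% of their values.

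The members and the lists set beside them were chosen with earlier results of these data known, so lists have counts and medians and no test. Given in full were Cdkn1a, Mdm2, Ccng1, Bbc3, Fas, Sesn1 and Zmat3 and, in each comparison, the 6 members with the smallest unadjusted p. Of the lists of further targets and of regulators, the 3 genes with the smallest p in each comparison were named. Alternatives concerned the floor, the filter, the normalization, the choice of probe set, the variance model, covariates for muscle and epithelial level, a block for the tumor number, and the omission of single arrays. Promoter sequences are those of RefSeq.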

Additional observations from a re-analysis of the deposited data

How the results depend on the processing

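Under 12 other settings and with each of the 9 arrays left out, 0 members passed the adjusted threshold in each of the 4 comparisons (limma), and the lowest adjusted p of a member under another setting was 0.0528, for p53R172H/- against p53-/- with the muscle level as covariate. Direction was followed for a selection of 39 pairs of gene and comparison. These were the members with the smallest unadjusted p (limma) in each comparison, together with Cdkn1a, Mdm2, Ccng1, Sesn1 and Zmat3. Of 466 values of this selection under other settings, 455 kept their direction and 11 did not. Choosing by small p favours values that keep their sign, so these counts do not stand for all members. With the mean of all probe sets, Cdkn1a was at 0.16 for p53R172H/- and 0.20 for both mutant groups against p53-/-, and Sesn1 at 0.0032 for p53R172H/+. With the epithelial level as covariate, Mdm2 was at -0.12 and -0.011 for p53R172H/- and both mutant groups against p53-/-, and Sesn1 at 0.10, 0.045 and, between the mutant groups, 0.11. With the muscle level as covariate, Mdm2 was at 0.0051 between the mutant groups and Sesn1 at 0.024 for p53R172H/+ against p53-/-. With 50 units added in place of the floor, Sesn1 was at 0.0010 between the mutant groups. The cause was not tested.

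With 1 array left out, 341 of 351 such values kept their direction. The member median for p53R172H/- against p53-/- ranged from -0.17 to -0.066. Among the 351 values, Mdm2 changed sign for p53R172H/- against p53-/- (-0.032 to 0.11). Cdkn1a (-0.091 to 0.081) and Zmat3 (-0.17 to 0.015) did so for p53R172H/+ against p53-/-. Sesn1 did so in the 4 comparisons, ranging from -0.31 to 0.20, from -0.22 to 0.017, from -0.23 to 0.29 and from -0.20 to 0.060. Members outside this selection changed sign too. For p53R172H/- against p53-/- they included Pmaip1 (-0.26 to 0.41), Gadd45a (-0.30 to 0.12) and Pltp (-0.25 to 0.25), while Phlda3 and Aen kept theirs. For p53R172H/+ against p53-/-, Plk3, Sfn, Ier5 and Gadd45a of the arrest genes changed sign, while Btg2 and Cgref1 did not.

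The tumor numbers were tried as a replicate block. Deviations of same-numbered tumors from their group means correlated at -0.497 to 0.237 (median 0.090), with 4 of 9 pairs over 0.1. Pairs of different number from different groups correlated at -0.471 to 0.524 (median 0.007), with 5 of 18 over 0.1. These ranges overlapped, so the numbers were not taken to pair the tumors. With the block 0 members passed the adjusted threshold. The members lower at an unadjusted p under 0.05 (limma) then numbered 8 for p53R172H/- and 4 for p53R172H/+ against p53-/-, and 5 between the mutant groups. The share of all genes under the block is not set beside these counts, so they show no change particular to the members. With 3 arrays a group the 95% interval of a typical member spanned a factor of 1.25 to either side before adjustment.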
